A study of Homo sapiens with 6 samples.

Results

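The genes described here encode the machines that compact and hold together sister chromosomes: the condensin subunits SMC2, SMC4, NCAPD2, NCAPG, NCAPH and NCAPD3, the cohesin subunits SMC1A, SMC3 and RAD21, and TOP2A, which encodes topoisomerase IIα. They were chosen by name, with earlier results of these data known. Every probe set of the array that names exactly 1 of these symbols was taken, which gave 34 of the 44988 single-symbol probe sets, and the 10 genes were among 18132 genes tested. Expression was measured on 6 Affymetrix arrays of cells labelled HCT-116, a colorectal carcinoma line: 3 arrays of cells given AAPK, which the series title describes as an inhibitor of the kinases Aurora A and PLK-1, and 3 of cells given the vehicle DMSO. The treatment field is the same for all 6 samples and reads 10 µM for 48 h. Since DMSO samples carry it too, 10 µM was read as what the AAPK cells received, and the sample descriptions call all 6 cultures high in Aurora-A and PLK-1. A single cell line was used, and whether the 3 samples of a group were separate cultures is not stated, so the p-values speak only to the spread among these 6 arrays, part or all of which may be technical.

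Condensin and cohesin are ring-shaped complexes, each built on a pair of long ATPases of the SMC (structural maintenance of chromosomes) family. SMC2 and SMC4 form the core of both condensins. NCAPD2, NCAPG and NCAPH complete condensin I, which compacts chromosomes after the nuclear envelope breaks down, and NCAPD3, NCAPG2 and NCAPH2 complete condensin II, which acts earlier, inside the nucleus. Cohesin, made of SMC1A, SMC3, RAD21 and a STAG subunit, encircles sister chromatids from S phase until anaphase and also forms chromatin loops in interphase. Topoisomerase II passes one DNA duplex through another and so untangles the sisters. Transcripts of TOP2A and of several condensin subunits are known to be periodic in the cell cycle, highest in G2 and mitosis.

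The deposited values were read as log2 signals and used as deposited, with medians of 6.46 to 6.47 on the AAPK arrays and 6.48 to 6.50 on the DMSO arrays. Their normalisation is not stated. Of 10 epithelial markers, KRT8 and KRT18 averaged 12.01 and 12.52 log2 units in AAPK and 11.84 and 12.44 in DMSO. EPCAM averaged 3.39 in AAPK and 3.45 in DMSO, at percentile 0.87 of all genes, and CDH1 (E-cadherin) averaged 5.11 in both groups, at percentile 14.5. CLDN3, KRT19, ESRP1 and CLDN7 were at percentiles 12.6, 13.3, 21.2 and 27.9, and CLDN4 and ELF3 at 84.9 and 90.2. EPCAM was therefore near the bottom of the array's range on cells labelled as a carcinoma line, and the line is named here as the labels name it. The blood marker PTPRC was at 3.87 in AAPK and 3.91 in DMSO and the fibroblast marker LUM at 3.29 in AAPK and 3.20 in DMSO. Other markers of these lists gave higher signals. Blood markers HBB and CD68 were at 8.46 and 7.88 in AAPK and 8.47 and 7.96 in DMSO. The fibroblast marker COL1A1 was at 6.97 in AAPK and 7.04 in DMSO, and the endothelial marker PECAM1 at 7.71 in AAPK and 7.74 in DMSO. None of the 14 measured fibroblast, endothelial and blood markers passed limma's threshold, with 1 of them at an unadjusted p under 0.05. The mean log2 level of each list overlapped between the groups: 7.25 to 7.27 in AAPK and 7.23 to 7.28 in DMSO for the 10 epithelial markers, 5.79 to 5.87 and 5.77 to 5.84 for 5 fibroblast markers, 6.51 to 6.63 and 6.59 to 6.64 for 5 endothelial markers, and 6.78 to 6.88 and 6.80 to 6.91 for 4 blood markers. KRT8 and ELF3 rose by 0.17 each (limma adjusted p = 0.0402 and 0.0483), calls that held in 1 of the 6 fits without an array, the one without AAPK replicate 3, and that of ELF3 was also lost with quantile normalisation (limma adjusted p = 0.132).

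TOP2A, NCAPG and NCAPD2 were higher in AAPK, each about 1.2-fold, and RAD21 was lower. Each gene was tested on its brightest probe set, the one with the highest mean over the 6 arrays, with limma and Benjamini-Hochberg adjustment over all 18132 genes at a threshold of adjusted p 0.05. By that test 3 of the 10 genes rose, 1 fell and 6 did not pass, where 15.4% of all genes passed, 8.11% higher and 7.26% lower. The groups did not overlap for 5 of the 10 genes, 4 with AAPK above and 1 with AAPK below, against 31.9% of all genes, 14.9% above and 17.1% below. In bulk RNA a larger share of cells in a state and more transcript per cell cannot be told apart. The median log2 change of the 10 was 0.05, and that of all genes -0.02. Over the 34 probe sets, tested among the 44988, 5 were higher and 3 lower in AAPK, where 7.13% and 5.82% of all single-symbol probe sets were called, 12.9% in all. The groups did not overlap for 10 probe sets with AAPK above and 7 with AAPK below, where 14.3% and 15.2% of all single-symbol probe sets, 29.6% in all, did not overlap. Probe sets of 1 gene read the same transcripts and are not independent.

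**Figure D1:**
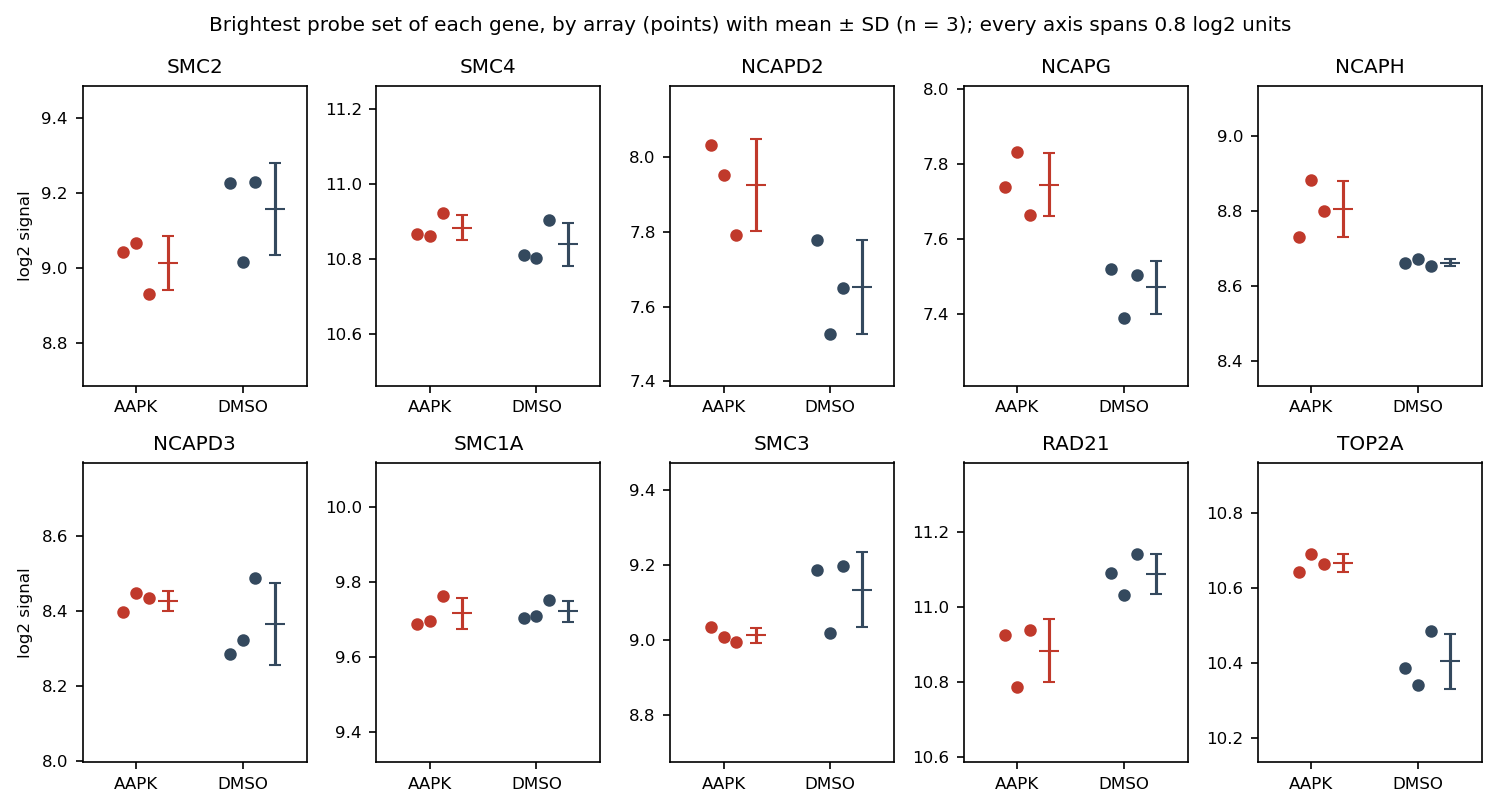
Log2 signal of the brightest probe set of each gene on the 3 AAPK arrays (left, red) and the 3 DMSO arrays (right, dark blue), with mean and SD beside the points; each vertical axis spans 0.8 log2 units around the gene's own level. TOP2A, NCAPG, NCAPD2 and NCAPH have all AAPK points above all DMSO points, RAD21 has them below, and the groups overlap for the other 5 genes.

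The promoters of the genes that rose, and of SMC3, are printed here because many genes of G2 and mitosis carry 2 short elements close to their start: the cell cycle homology region (CHR), bound by the DREAM and MuvB complexes, and CCAAT boxes, bound by NF-Y. The 250 bases before the annotated start were taken from RefSeq on build GRCh38.p14, on the gene's own strand, for TOP2A (chr17:40417897-40418146, minus strand), NCAPG (chr4:17810729-17810978, plus strand), NCAPD2 (chr12:6493852-6494101, plus strand) and SMC3 (chr10:110567445-110567694, plus strand). SMC3 did not pass as a gene, but it has the most probe sets called lower. Capitals mark the CHR core TTTGAA and the CCAAT box, each on either strand, so that TTCAAA and ATTGG are the same elements read from the other strand.
TOP2A: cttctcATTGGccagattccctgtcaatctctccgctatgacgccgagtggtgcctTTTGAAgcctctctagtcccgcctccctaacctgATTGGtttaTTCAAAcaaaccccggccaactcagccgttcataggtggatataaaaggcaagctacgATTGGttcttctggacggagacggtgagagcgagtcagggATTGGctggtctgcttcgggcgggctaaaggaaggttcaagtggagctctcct
NCAPG: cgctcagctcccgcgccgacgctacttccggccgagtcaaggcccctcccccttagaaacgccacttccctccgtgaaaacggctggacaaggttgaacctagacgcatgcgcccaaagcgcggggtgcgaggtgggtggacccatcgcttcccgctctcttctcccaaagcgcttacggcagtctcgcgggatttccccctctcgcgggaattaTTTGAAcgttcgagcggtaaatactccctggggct
NCAPD2: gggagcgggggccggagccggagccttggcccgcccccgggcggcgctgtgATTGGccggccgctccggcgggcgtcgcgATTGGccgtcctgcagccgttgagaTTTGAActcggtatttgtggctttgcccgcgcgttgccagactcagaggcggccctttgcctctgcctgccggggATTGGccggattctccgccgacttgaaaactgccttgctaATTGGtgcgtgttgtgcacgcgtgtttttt
SMC3: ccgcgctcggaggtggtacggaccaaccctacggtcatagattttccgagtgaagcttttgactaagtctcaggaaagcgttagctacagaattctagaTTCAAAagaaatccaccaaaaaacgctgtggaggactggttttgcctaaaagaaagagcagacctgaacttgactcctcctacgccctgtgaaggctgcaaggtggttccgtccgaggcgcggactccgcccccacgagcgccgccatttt
The TOP2A window held 2 CHR cores and 4 CCAAT boxes, the NCAPD2 window 1 and 4, the NCAPG window 1 and 0 and the SMC3 window 1 and 0. Counted back from the start, the CHR core of NCAPG began at base -35, those of TOP2A at -194 and -151, that of NCAPD2 at -145 and that of SMC3 at -151. No 2 matches shared a base. TTCGAA, a variant form that was also searched, was in none of the windows. Of all 35116 windows of this length in the table, 13.3% held at least 1 TTTGAA, 1.19% at least 1 TTCGAA and 32% at least 1 CCAAT box. Both a TTTGAA and at least 3 CCAAT boxes were in 0.37%. That combination is the one the TOP2A and NCAPD2 windows hold, so its low share is no test of them. Windows were found for 9 of the 10 genes, 13 windows in all since 4 genes have several; RAD21 is named only. TTTGAA was in 5 of the 13 windows, including 1 of the 2 of SMC4, whose level did not pass the test, and CCAAT boxes were in 4, including those of NCAPH and NCAPD3. A match is a stretch of letters and no evidence of binding.

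**Figure D2:**
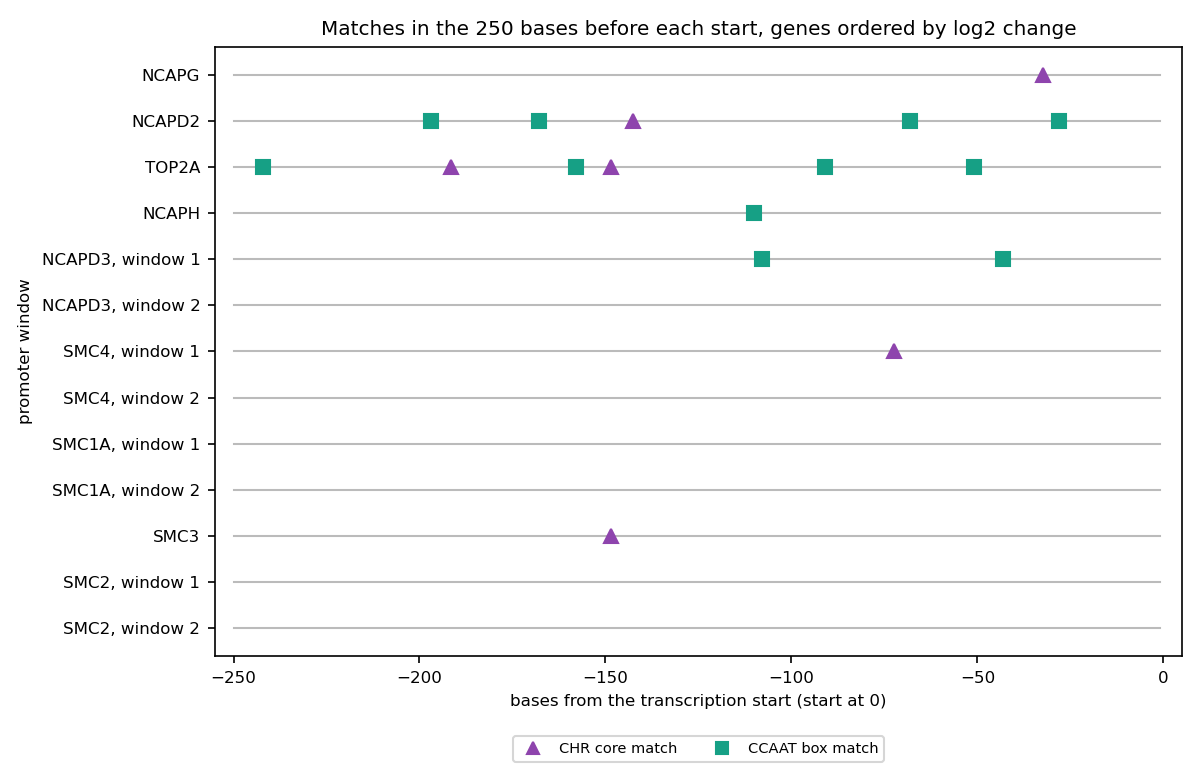
Positions of the CHR core (triangles) and CCAAT box (squares) in the 250 bases before the transcription start of 9 genes, in bases from the start, with genes ordered from the highest to the lowest log2 change. TOP2A and NCAPD2 carry 4 CCAAT boxes each, and the SMC1A and SMC2 windows have no match to either element.

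TOP2A had log2 signals of 10.64, 10.69 and 10.67 on the AAPK arrays and 10.39, 10.34 and 10.49 on the DMSO arrays. All 3 AAPK values lay above all 3 DMSO values, and the gap between the means was wider than the spread within either group. The change was 0.26 ± 0.05 (SE, n = 3 per group), or 1.20-fold, with a 95% interval of 0.15 to 0.37 and an adjusted p of 0.00540 by limma. The other TOP2A probe sets were higher by 0.15 and 0.17, with no overlap between the groups, and did not pass over the 44988 probe sets (limma adjusted p = 0.0656 and 0.0833). On the first of these the AAPK arrays read 10.40, 10.38 and 10.48 and the DMSO arrays 10.26, 10.24 and 10.29. TOP2A was called higher in all 14 alternative fits by gene, including each of the 6 that left out an array.

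The condensin I subunits all had a positive difference, and 2 of 3 were called higher, where 8.11% of all genes were. NCAPG, a HEAT-repeat subunit that holds condensin on DNA, read 7.74, 7.83 and 7.67 in AAPK and 7.52, 7.39 and 7.50 in DMSO. The rise was 0.27 ± 0.06 (1.21-fold, 95% interval 0.15 to 0.40, limma adjusted p = 0.00875), and the second probe set, dimmer at 5.68 ± 0.06 in AAPK and 5.42 ± 0.08 in DMSO (SD, n = 3 each), rose by 0.26 (limma adjusted p = 0.0149). Both NCAPG probe sets thus separated the groups, and the gene was called in all 14 alternatives, while the dimmer probe set lost its call without AAPK replicate 1 or DMSO replicate 1 (limma adjusted p = 0.0626 and 0.0691). NCAPD2, the other HEAT-repeat subunit of condensin I, read 8.03, 7.95 and 7.79 in AAPK and 7.78, 7.53 and 7.65 in DMSO, so that the lowest AAPK array and the highest DMSO array nearly met. Its rise was 0.27 ± 0.08 (1.21-fold, limma adjusted p = 0.0353), with 0.30 on the second probe set (limma adjusted p = 0.0138). The NCAPD2 call was lost when AAPK replicate 1 or 2 or DMSO replicate 2 or 3 was left out, with changes of 0.21 to 0.34 and adjusted p up to 0.127 over the 6 fits.

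NCAPH, the kleisin that closes the condensin I ring, read 8.73, 8.88 and 8.80 in AAPK and 8.66, 8.67 and 8.65 in DMSO. The groups did not overlap, with a difference of 0.14 ± 0.05, but the gene did not pass (limma adjusted p = 0.0841); with an intensity trend and robust prior it did (limma adjusted p = 0.0382). Its dimmer probe sets differed by 0.03 and 0.11 and overlapped. NCAPD3, the condensin II subunit that corresponds to NCAPD2, read 8.40, 8.45 and 8.43 in AAPK and 8.29, 8.32 and 8.49 in DMSO. Its difference of 0.06, with a 95% interval of -0.07 to 0.19, did not pass, and DMSO replicate 3 alone was above the AAPK arrays.

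The ATPase pair shared by both condensins did not pass on any of its 11 probe sets with the settings reported. In the fit of all probe sets 4 of them passed under some alternatives. SMC4 was at 10.88 ± 0.03 in AAPK and 10.84 ± 0.06 in DMSO on its brightest probe set, with a difference of 0.04 and a 95% interval of -0.06 to 0.15. With quantile normalisation the difference was -0.02. Of the other SMC4 probe sets 2 differed by -0.02 and 0.03 and overlapped, and the dimmest was higher in AAPK by 0.18 with no overlap (9.91, 10.02 and 9.89 in AAPK against 9.78, 9.70 and 9.80 in DMSO; limma adjusted p = 0.0545). That probe set passed with the trended robust prior, median centring, the signal filter and array weights (limma adjusted p of 0.00945 to 0.0444).

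SMC2 had 7 probe sets that did not share a direction. The brightest read 9.04, 9.07 and 8.93 in AAPK and 9.23, 9.02 and 9.23 in DMSO, a difference of -0.14 ± 0.07 that did not pass (limma adjusted p = 0.198). DMSO replicate 2 lay among the AAPK arrays there, and without it the difference was -0.21. That passed in the fit by gene (limma adjusted p = 0.0366) but not in the fit of all probe sets. The 3 dimmest SMC2 probe sets were lower in AAPK by 0.16, 0.21 and 0.24, each with no overlap between the groups and adjusted p of 0.0698 to 0.102 by limma. With array weights all 3 passed (limma adjusted p of 0.0378 to 0.0424). The brightest of these 3 also passed with quantile normalisation and the trended prior, and the other 2 without AAPK replicate 3. Another was higher by 0.06, also with no overlap, and the remaining 2 were at -0.0047 and 0.05. The probe set at 0.06 carries the suffix _x_at, which Affymetrix gives to sets that may cross-hybridise with other sequences. Whether these sets read different SMC2 transcripts was not tested.

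All 12 cohesin probe sets had a negative difference, 3 of them past the threshold, with a median of -0.09. Of all single-symbol probe sets 55% had a negative difference and 5.82% were called lower, with a median of -0.01. The 12 cohesin sets belong to 3 genes and are not independent, so the share of 55% is no test of them. The 5 SMC1A sets among them ran from -0.13 to -0.00029, and none was called. RAD21, the kleisin that separase cleaves at anaphase, read 10.93, 10.79 and 10.94 in AAPK and 11.09, 11.03 and 11.14 in DMSO. No AAPK array reached a DMSO array, and RAD21 fell by 0.20 ± 0.05 on the log2 scale (0.868-fold, 95% interval -0.33 to -0.08, limma adjusted p = 0.0297). Its other probe sets were at -0.15, with no overlap (limma adjusted p = 0.0907), and at -0.06 and -0.03 with overlap. The RAD21 call did not hold when its 4 probe sets were averaged (-0.11, limma adjusted p = 0.121), on the probe set with the largest SD, which is the same one refitted among other genes (limma adjusted p = 0.0522), and without AAPK replicate 1 or 2 or DMSO replicate 1 or 3, where adjusted p ran up to 0.105.

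SMC3, the cohesin ATPase whose acetylation locks the ring during S phase, read 9.03, 9.01 and 8.99 in AAPK and 9.19, 9.02 and 9.20 in DMSO on its brightest probe set. As for SMC2, DMSO replicate 2 lay beside the AAPK arrays while the other DMSO arrays were higher, and the difference of -0.12 ± 0.06 did not pass (limma adjusted p = 0.192). The second probe set read 8.82, 8.77 and 8.74 in AAPK against 8.99, 8.93 and 9.08 in DMSO and fell by 0.23 (limma adjusted p = 0.0193). The dimmest read 8.11, 8.05 and 8.18 in AAPK against 8.44, 8.26 and 8.48 in DMSO and fell by 0.28 (limma adjusted p = 0.0183). SMC3 was therefore called lower on 2 of its 3 probe sets, and as a gene with the mean of the 3 (-0.21, limma adjusted p = 0.0163), on the one with the largest SD (limma adjusted p = 0.0199), with quantile normalisation (-0.17, limma adjusted p = 0.0488) and without DMSO replicate 2 (-0.18, limma adjusted p = 0.0375). The call on the dimmest probe set was lost without AAPK replicate 1 or 2 or DMSO replicate 1 or 3, and that on the second without AAPK replicate 2 or 3 or DMSO replicate 1 or 3.

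SMC1A, the other cohesin ATPase, showed no detectable difference on any of 5 probe sets. The brightest read 9.69, 9.70 and 9.76 in AAPK and 9.70, 9.71 and 9.75 in DMSO. The values interleaved, and the 95% interval of the difference, -0.10 to 0.09, excludes changes as large as that of RAD21 on this probe set. The other 4 ran from -0.13 on the dimmest to -0.00029, all with overlap.

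**Figure D3:**
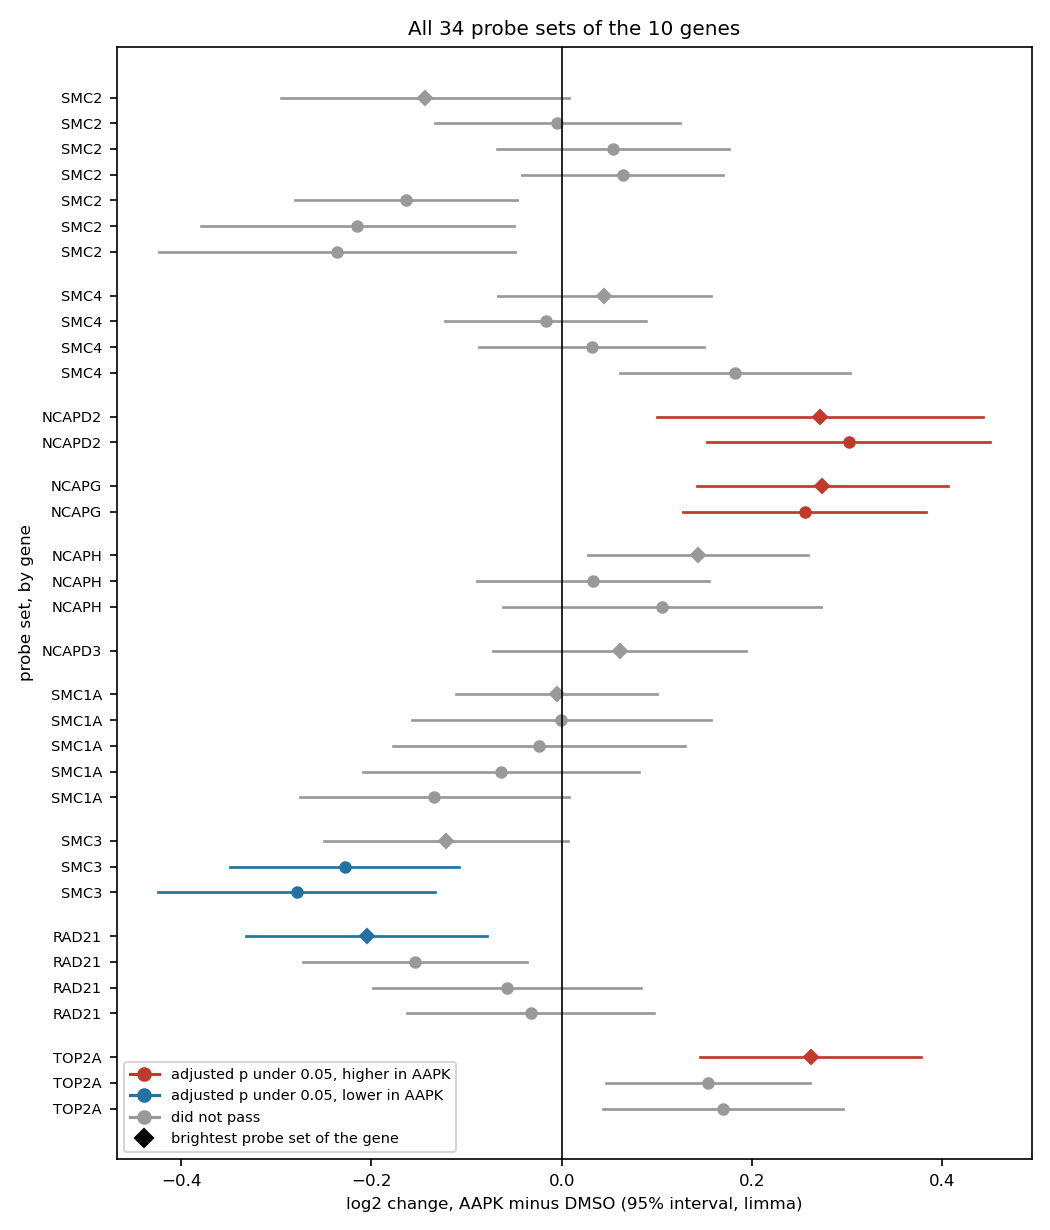
Log2 change, AAPK minus DMSO, of all 34 probe sets with 95% intervals from limma, grouped by gene and ordered within a gene from the brightest down; red and blue mark probe sets called higher and lower, grey those that did not pass, and diamonds the brightest of each gene. All 7 condensin I and 3 TOP2A points lie above 0, all 12 cohesin points below 0, and SMC2 points on both sides.

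Genes with a close counterpart were set beside it. TOP2B, the topoisomerase II found in dividing and non-dividing cells alike, was at 9.74 ± 0.05 in AAPK and 9.69 ± 0.07 in DMSO, a difference of 0.05 (95% interval -0.06 to 0.17). NCAPG2 of condensin II was at -0.03 (95% interval -0.15 to 0.09), and NCAPH2 at -0.12 with no overlap between the groups but short of the threshold (limma adjusted p = 0.111). The pairs were chosen after the values were seen and compared on brightest probe sets alone. Other sets give other gaps: NCAPG2 sets ran from -0.09 to 0.13, NCAPH sets from 0.03 to 0.14, TOP2A sets from 0.15 to 0.26 and NCAPD2 sets from 0.27 to 0.30. Within arrays the change of TOP2A exceeded that of TOP2B by 0.21, that of NCAPG exceeded NCAPG2 by 0.30 and that of NCAPH exceeded NCAPH2 by 0.26. In each of these pairs all 3 AAPK arrays lay above all 3 DMSO arrays. How often other gene pairs separate the groups was not examined. NCAPD2 exceeded NCAPD3 by 0.21, with overlap. The SDs of the within-array differences were 0.03 in AAPK and 0.03 in DMSO for TOP2A minus TOP2B, and 0.07 in AAPK and 0.01 in DMSO for NCAPH minus NCAPH2. They were 0.10 in AAPK and 0.05 in DMSO for NCAPG minus NCAPG2 and 0.14 in AAPK and 0.18 in DMSO for NCAPD2 minus NCAPD3. These 4 differences are given as values: the exact two-sided permutation test of 3 arrays against 3 cannot give a p below 0.1, so it says nothing about whether counterparts differed.

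Among 5 measured condensin II subunits and condensin partners, 2 rose and 0 fell, where 8.11% of all genes were called higher and 7.26% lower. Both that rose are partners and not subunits, and with quantile normalisation 1 gene of the list was called lower. MKI67, the Ki-67 protein that coats mitotic chromosomes, rose by 0.46 (8.40 ± 0.02 in AAPK and 7.94 ± 0.07 in DMSO, limma adjusted p = 1.94e-04), although its 6 probe sets ran from -0.06 to 0.46 and 2 of them passed. KIF4A, the chromokinesin that works with condensin on the chromosome axis, rose by 0.32 (limma adjusted p = 0.00191). Both calls held whichever array was left out. MCPH1, also on the list, was not analysed here.

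None of 6 other cohesin subunits passed limma's threshold, and 0 had an unadjusted p under 0.05, against 26.8% of all genes. STAG1 and STAG2, the subunits of somatic cohesin that bind CTCF, differed by -0.02 and -0.07. The meiotic subunits SMC1B, REC8, STAG3 and RAD21L1 had means of 3.24 to 5.61 in AAPK and 3.24 to 5.44 in DMSO. By signal they were at percentiles 0.29 (RAD21L1) to 19.5 (REC8) of all genes. At signals this low the absence of a call says little, so the share of 26.8% is not a like comparison. SMC1B, the meiotic counterpart of SMC1A, differed by -0.11. Without DMSO replicate 2, 1 of the 6 was called higher.

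Genes that load, lock, release or cut cohesin moved both ways. PTTG1 (securin) was not analysed here. Of the 13 measured, 2 were called higher and 3 lower, where 8.11% and 7.26% of all genes were. Without DMSO replicate 2 these counts were 1 and 5; 5 were also lower with the trended prior, array weights or the signal filter, and 2 without AAPK replicate 2 or 3 or DMSO replicate 1 or 3. SGO2, a shugoshin that shields cohesin at centromeres, rose by 0.48 (6.32 ± 0.14 in AAPK and 5.83 ± 0.04 in DMSO, limma adjusted p = 9.40e-04). Its 3 probe sets were between 0.16 and 0.48, and 1 of them was called. CTCF, the factor that stops cohesin at loop anchors, fell by 0.39 on its only probe set (8.08 ± 0.09 in AAPK and 8.47 ± 0.06 in DMSO, limma adjusted p = 0.00114). WAPL, which opens the ring and releases cohesin, fell by 0.31 (limma adjusted p = 0.00499); its 5 probe sets ran from -0.34 to 0.08. The calls on SGO2, CTCF and WAPL held whichever array was left out.

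PDS5B, which binds cohesin and serves both its release and its protection, rose by 0.36 on the brightest of 4 probe sets (limma adjusted p = 0.0143), but another fell by 0.24 and passed as well, so its direction is not settled. Its call was lost without AAPK replicate 2 or 3 or DMSO replicate 2. The last of the 5 called genes, CDCA5 (sororin, which keeps acetylated cohesin on DNA), fell by 0.19 (limma adjusted p = 0.0239), a call lost without AAPK replicate 2 or 3 or DMSO replicate 1 or 3. The cohesin loader gene NIPBL and the acetyltransferase gene ESCO2 were at -0.17 and -0.18, with no overlap between the groups, and did not pass (limma adjusted p = 0.0723 and 0.0529). The list's median was -0.04, close to that of all genes.

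The SMC5/6 complex is another SMC ring with roles in DNA repair. Of its 7 genes, 2 were called higher and 1 lower, where 8.11% and 7.26% of all genes were. Its core ATPases differed in direction: SMC5 rose by 0.27 (limma adjusted p = 0.00402, probe sets from 0.0014 to 0.40), and SMC6 fell by 0.29 on the brighter of its 2 probe sets and by 0.23 on the other (limma adjusted p = 0.0166 for the gene). The SMC5 call held whichever array was left out, while that on SMC6 was lost without AAPK replicate 3 or DMSO replicate 3. NSMCE2, its SUMO ligase, rose by 0.18 (limma adjusted p = 0.0298); that call was lost in 5 of the 6 fits that left out an array, being kept without AAPK replicate 1, and with quantile normalisation (limma adjusted p = 0.0798).

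Of 7 other topoisomerase genes and their partners, 1 rose and 1 fell, where 8.11% of all genes were called higher and 7.26% lower. TOP1, the type I enzyme that relaxes supercoils ahead of polymerases, rose by 0.39 (9.34 ± 0.04 in AAPK and 8.94 ± 0.07 in DMSO, limma adjusted p = 5.20e-04) and by 0.42 on its second probe set. TOP3A, which dissolves recombination intermediates together with BLM, fell by 0.28 (limma adjusted p = 0.00425). Its dimmer probe set was at -0.12 and was not called. The gene calls on TOP1 and TOP3A held whichever array was left out. Whether TOP1 changed more than TOP2A was not tested.

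Genes of cell cycle phases moved in the same samples. All 14 listed G2/M genes, chosen with earlier results of these data known, rose on their brightest probe sets, with a median of 0.45. They ran from CDK1 at 0.17 (limma adjusted p = 0.0479) to BUB1, AURKA, CCNB1 and CDC20 at 0.74, 0.80, 0.86 and 0.88. CDK1 no longer passed in any of the 6 fits without an array, nor with quantile normalisation (limma adjusted p = 0.179). The 3 probe sets of CDC20 ran from 0.01 to 0.89, with 2 called, and the 3 of CDK1 from 0.05 to 0.29, with 1 called. Of the 3 PLK1 sets 2 were called, and all sets of HMMR, UBE2C, CENPF and CCNA2 were called. BUB1, AURKA and CCNB1 had 1 set each. Of 14 S phase genes, 6 fell, 0 rose and 8 did not pass, with a median of -0.10. Over all genes 7.26% were called lower and 8.11% higher. CDT1, CCNE2, RRM2 and CDC6 were at -0.58, -0.41, -0.39 and -0.19. CDC6 alone of these 4 lost its call when an array was left out, without AAPK replicate 1 or 3 or DMSO replicate 1 or 3. All 3 CDT1 probe sets were called lower. The dimmer sets of CCNE2, RRM2 and CDC6 were at -0.15, -0.006 and 0.04 and were not called. PCNA and MCM6 did not pass, but 1 dimmer probe set of each was called lower. With a single array left out 3 to 6 of the 14 S phase genes fell, 3 without AAPK replicate 1 or DMSO replicate 1 or 3. The rises of TOP2A, NCAPG and NCAPD2 were smaller than the median of the G2/M list. The part of cell cycle phase in the changes of the 10 genes was not tested.

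**Figure D4:**
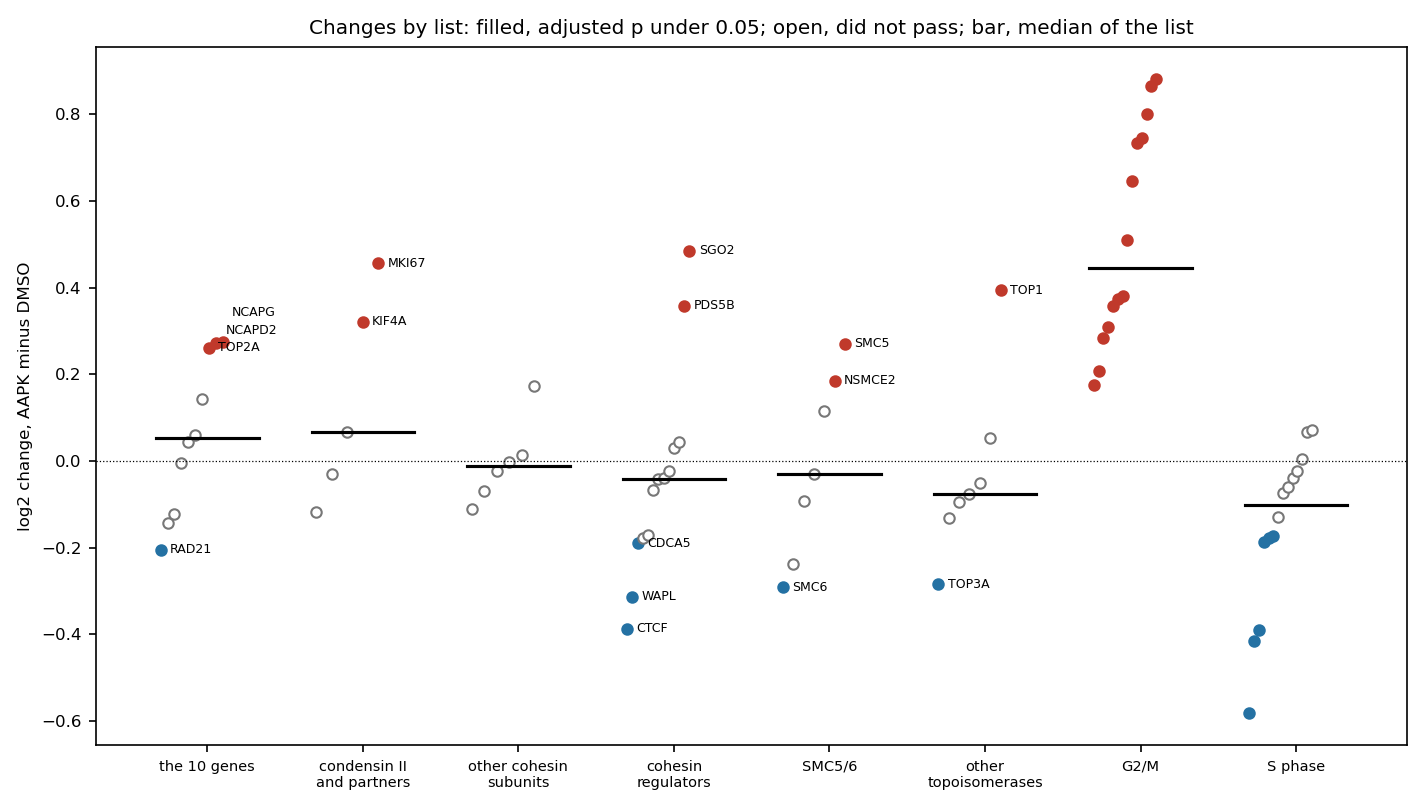
Log2 change, AAPK minus DMSO, of the 10 genes and of 7 lists of related genes on their brightest probe sets; filled points passed limma's threshold, open points did not, and bars mark each list's median. The G2/M genes run from 0.17 to 0.88, while the cohesin regulators, SMC5/6 and other topoisomerases have called points on both sides of 0.

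Outside these lists, the genes whose pattern over the 6 arrays was closest to that of TOP2A were CYB561, a transmembrane cytochrome, CSE1L, the export receptor that recycles importin α, and BAZ1A, a subunit of ISWI chromatin remodelers. Likeness was the Euclidean distance between log2 signals centred on each gene's mean. The distances were 0.040, 0.040 and 0.043 log2 units over 6 arrays, and the 3 genes rose by 0.28, 0.28 and 0.27. Rises close to that of TOP2A follow from this way of choosing the genes and are no separate result.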

How the data were processed

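RNA came from Trizol extracts and was read on 6 Affymetrix arrays, per the labels' protocols. The authors deposited log2 signal values for 49395 probe sets; log2 was read from their range of 2.83 to 14.25, since no scale is stated. How the arrays were normalised and the probe sets summarised is not stated, and a change common to most genes would be lost in such scaling. Symbols came from the platform annotation: 44988 named 1 symbol, 1832 several, 2473 none and 102 were controls. All 34 probe sets of the 10 genes kept their symbol in RefSeq.

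The linear models of limma 3.58.1 (R 4.3.3; moderated by eBayes, with a term for group alone and two-sided tests) were fitted once on 18132 genes, each by its brightest probe set, and once on all 44988 single-symbol probe sets, with Benjamini-Hochberg adjustment over each and a threshold of 0.05. Changes are AAPK minus DMSO. The precision is limited by 3 arrays per group. The fit was tested on simulated data.

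The 10 genes and the lists of related genes were chosen with earlier results of these data known, and the 4 comparisons of counterparts after seeing the values. Named are the 10 genes, their counterparts, up to 4 called genes of each list with the largest change, and the 3 genes nearest to TOP2A; other named list members were chosen after their values were seen. Alternatives were quantile normalisation, median centring, a filter on signal at the 25th percentile, other ways to choose a probe set, a trended robust prior, array weights, a replicate block and leaving out each array; for probe sets, also testing all but controls.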

Additional observations from a re-analysis of the deposited data

How the results depend on the processing

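Of 140 alternative values of the 10 genes, 119 kept their direction and side of the threshold, 10 lost the call, 6 gained one and 5 turned sign. TOP2A and NCAPG kept their calls in all 14 alternatives each. The number of the 10 genes called higher was 2 to 4 in every alternative, against 3. The number called lower, 1 as reported, was 2 with quantile normalisation and 0 to 3 with an array left out: 0 without AAPK replicate 1 or 2 or DMSO replicate 1 or 3, and 3 without DMSO replicate 2. Of the 34 probe sets, 5 were called higher and 3 lower. With an intensity trend and robust prior these were 8 and 5, with quantile normalisation 5 and 5, with array weights 6 and 6, and with an array left out 2 to 5 and 0 to 4; 2 were called higher without AAPK replicate 1 and 3 without DMSO replicate 3, and 0 lower without AAPK replicate 2 or DMSO replicate 1 or 3.

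Signs turned only for differences that had not passed. With quantile normalisation SMC4 was at -0.021 on its brightest probe set and -0.035 on its _x_at set. With median centring SMC1A was at 0.015 and 0.020 on its 2 brightest sets, SMC2 at 0.015 on its second and SMC4 at 0.0030 on its second, and with array weights the second SMC1A set was at 0.0035. With an array left out, SMC1A ran from -0.029 to 0.010, -0.049 to 0.076 and -0.088 to 0.030 on its 3 brightest sets, the second SMC2 set from -0.063 to 0.031, SMC4 from -0.031 to 0.0096 on its second and -0.0067 to 0.056 on its _x_at set, and RAD21 from -0.10 to 0.012 and -0.082 to 0.017 on its 2 dimmest. The cause of these changes was not tested.

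With the replicate number as a block, 1116 genes were higher and 983 lower, against 1471 and 1317, and among the 10 genes 3 and 1, as without it. The deviations of same-numbered arrays from their group means correlated at -0.02, -0.23 and -0.05. Whether same-numbered arrays were paired is not stated, and so few correlations cannot settle it. The median change of all genes was -0.01 with quantile normalisation and 0.0035 with median centring. The number of arrays, 3 per group, limits which differences of the size seen here can be called.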

Other observations

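Several cohesin regulators had probe sets that disagreed, which the gene counts hide because they rest on the brightest set. HDAC8, the deacetylase that recycles SMC3, was at 0.04 on its brightest set and did not pass, while its 8 sets ran from -0.21 to 0.37 and 2 of them passed upward. PDS5A, the partner of PDS5B in cohesin release, was at -0.02 on its brightest of 4 sets, and 1 other was called higher, at 0.27. These genes were singled out after their values were seen, and whether the sets read different transcripts was not tested.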
